A study of Sus scrofa with 9 samples.

Results

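Chemokine genes and the genes of chemokine receptors were taken from the table of 16562 porcine genes by their symbols: the CXC, CC, CX3C and XC ligands, their classical receptors, and the atypical receptors, among which *CCRL2* is counted here. The rule found 39 genes, 22 ligands and 17 receptors, of which 12 are classical and 5 atypical. *CXCL2*, *CX3CL1* and *CXCR2* had deposited counts that were not whole, so their reads may be shared with similar genes and their values are uncertain. In all, 18 of the 39 genes had enough counts to be tested (12 ligands and 6 receptors), and the other 21 had too few, and most of these are given below by their counts.

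Chemokines are small secreted proteins that guide white blood cells along concentration gradients. They bind G protein-coupled receptors on the responding cell, whereas atypical receptors bind the same ligands without G protein signaling and can remove them from the surroundings. In fat tissue, stromal cells, preadipocytes and adipocytes secrete chemokines, and CCL2 is known for drawing monocytes there. The roles named below are known mainly from human and mouse.

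The study asked how a long noncoding RNA antisense to *PLAAT3*, lnc*PLAAT3*-AS, acts in porcine fat cells. Primary preadipocytes were isolated from the back fat of Rongchang piglets (female). They were brought to differentiate with insulin, 3-isobutyl-1-methylxanthine and dexamethasone, and RNA was sequenced at day 8. Cells were transfected with a plasmid that overexpresses lnc*PLAAT3*-AS (overexpression) or with an siRNA against it (siRNA), and wild-type cells formed the control, with 3 replicates per group. The design text calls the controls blank, whereas the paper calls them negative controls and names a control siRNA construct for its other assays, so whether the sequenced controls were transfected is not clear. None of the sequenced groups is labeled as empty plasmid or as a nontargeting siRNA. Effects of lnc*PLAAT3*-AS and of the transfection therefore cannot be told apart. The design text calls the replicates biological, but by the study's methods its cell experiments used cells of a single pig, so the spread between replicates does not cover differences between animals.

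The 9 libraries held between 16724902 and 17495882 estimated counts. lnc*PLAAT3*-AS itself was not analyzed here, so the labels were not checked against it. The cells are labeled adipocytes. The 10 adipocyte markers summed to 93.0 to 110 CPM (counts scaled to library size) in the control, 123 to 126 CPM after overexpression and 326 to 505 CPM after siRNA, most of it *LPL* (means of 65.1, 84.0 and 418 CPM). By the limits given below, 1 of the 7 tested adipocyte markers rose and 4 fell with siRNA (7.67% and 7.52% of all tested genes did). With overexpression 1 rose and 0 fell (2.61% and 1.89% did). *LEP* had no count in the control and siRNA libraries, and *ADIPOQ* had 11 counts in the control, 9 after overexpression and none after siRNA. The summed level of 10 preadipocyte and fibroblast markers was 120037 to 122070 CPM in the control, 145645 to 147869 CPM after overexpression and 95575 to 103294 CPM after siRNA. Of these 10 markers, 1 rose and 3 fell with siRNA and 0 changed with overexpression, against the shares of all tested genes just given. Control replicate 3 was the highest control library for 13 of the 18 tested chemokine and receptor genes, against 36.6% of all 12721 tested genes, and results that rest on it are given without it as well. The median coefficient of variation of the tested genes of both families with a mean of at least 1 CPM was 22.6% in the control (n = 10 genes), 11% after overexpression (n = 10) and 8.49% after siRNA (n = 13). Over all tested genes with such a mean it was 8.03%, 4.54% and 7.0% in the same order. These are bulk cultures, in which fewer cells of a type and less RNA per cell cannot be told apart.

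Most of the tested chemokine genes were higher after knockdown. With siRNA against control, 13 of 18 tested genes rose (7.67% of all tested genes did) and 1 fell (7.52% did), where a change means an adjusted p under 0.05 by edgeR's quasi-likelihood test and at least a 2-fold difference. With overexpression against control, 3 rose (2.61% of all tested genes did) and 6 fell (1.89% did). The median log2 fold change of the 18 genes was 2.01 with siRNA and -0.41 with overexpression, whereas the medians of all tested genes were 0.00 and 0.01. Overexpression and siRNA share the same 3 control libraries, so the difference between their effects was tested directly. In that comparison 14 of the 18 genes were lower with overexpression than with siRNA (9.17% of all tested genes were) and 1, *CCR1*, was higher (9.54% were). The groups did not overlap in 13 of the 18 genes with overexpression against control (57.1% of all tested genes), 15 with siRNA against control (61.3%) and 16 with overexpression against siRNA (72.5%). A gene passed the filter on low counts if it reached 0.584 CPM in enough libraries. *CXCL2*, *CCL20*, *CCL25* and *CCR7* reached that level in all libraries of the siRNA group only, *CCR1* and *ACKR2* of the overexpression group only and *CCL11* of the control only, so the shares of changed genes describe this selection and not all 39 genes.

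**Figure D1:**
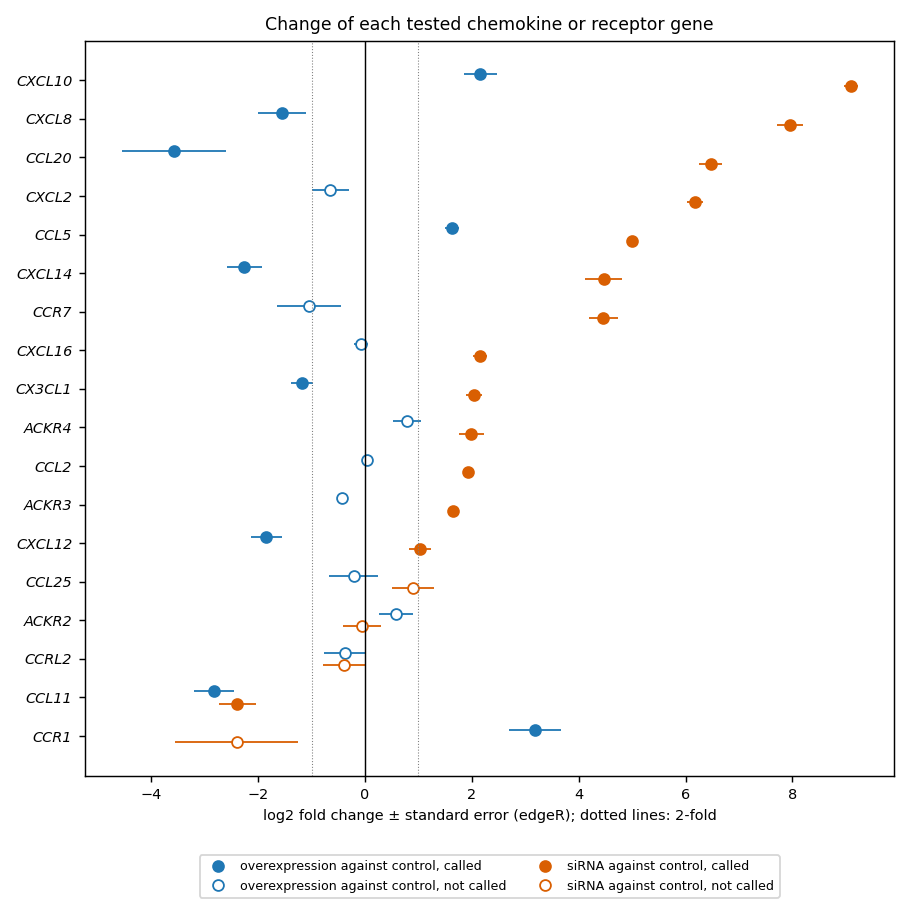
Log2 fold change of each of the 18 tested chemokine and receptor genes, with overexpression (blue) and siRNA (orange) against control. Bars are standard errors, filled points passed both the adjusted p of 0.05 and the 2-fold limit, and dotted lines mark 2-fold. The siRNA points of 13 genes are filled to the right of 0 and that of *CCL11* to the left, while the filled overexpression points lie on both sides.

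Levels of different genes were compared as FPKM, a measure of fragments that allows for gene length and library size. The summed mean FPKM of the 22 ligands was 1236 in control cells, 1092 with overexpression and 11035 with siRNA. By library it was 1116, 1136 and 1455 in control replicates 1, 2 and 3, 1084, 1070 and 1121 after overexpression and 10685, 11551 and 10868 after siRNA. The 3 siRNA libraries stood apart from the other 6, while control replicate 1 lay inside the overexpression range and control replicates 2 and 3 above it. *CCL2* made up 70.8% of the ligand FPKM in control cells, 85.9% with overexpression and 30.2% with siRNA. *CXCL14* made up 22.2%, 5.35% and 55.2% in the same order, so it led the ligands after siRNA and *CCL2* led them in the other groups. Among all genes of the table, *CXCL14* was number 296 by mean FPKM in control cells, 1219 with overexpression and 9 with siRNA. *CXCL8* moved from number 8449 in the control to 156 after siRNA, where it made up 7.15% of the ligand FPKM.

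**Figure D2:**
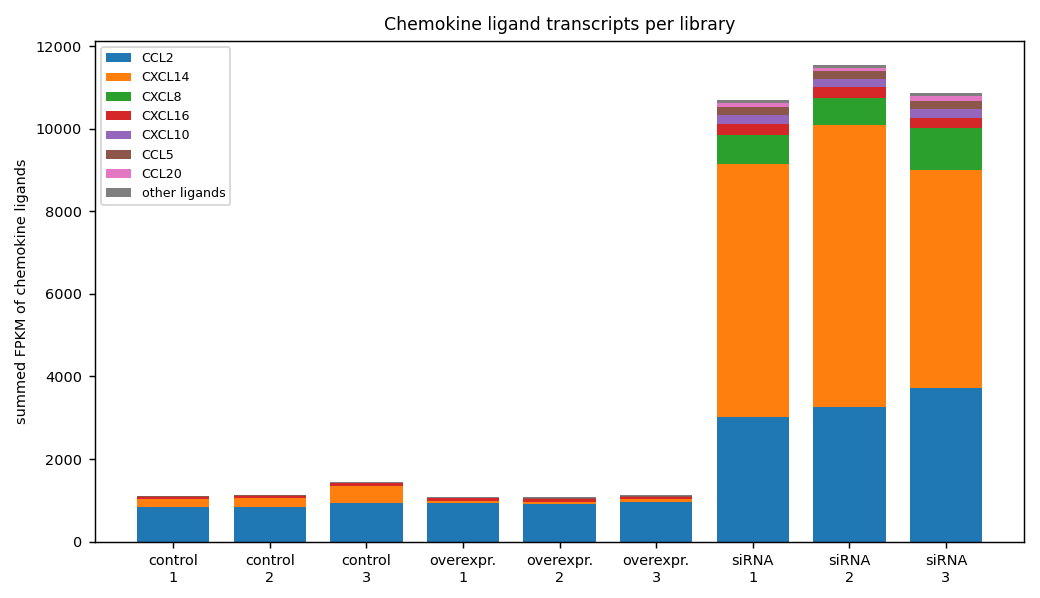
Summed FPKM of the 22 chemokine ligands in each of the 9 libraries (overexpr., overexpression), stacked by the ligands with the highest levels. The 6 control and overexpression bars lie between 1070 and 1455 FPKM and consist mostly of *CCL2*, and the 3 siRNA bars lie between 10685 and 11551 FPKM with *CXCL14* as the largest share.

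The CXC ligands with an ELR motif, which attract neutrophils through CXCR1 and CXCR2, were low in the control and rose after siRNA. *CXCL8* (interleukin 8) was at 2.98, 3.62 and 4.96 CPM in the control, 1.5, 1.09 and 1.33 CPM after overexpression and 860, 796 and 1208 CPM after siRNA. All 3 groups were separate, with overexpression lowest. Its log2 fold change was 7.95 ± 0.244 (standard error, adjusted p = 1.68e-08) with siRNA and -1.55 ± 0.451 (adjusted p = 0.0232) with overexpression. The fall kept its size but not its call with fewer libraries. It was -1.72 without control replicate 1 (adjusted p = 0.0611), -1.33 without control replicate 3 (0.161) and -1.44 without overexpression replicate 2 (0.0546), with adjusted p values of 9.63e-07 to 0.161 over the alternatives on counts. *CXCL2*, whose counts are uncertain, was at 0.803, 0.642 and 0.467 CPM in the control, 0.403, 0.459 and 0.348 CPM after overexpression and 46.1, 43.2 and 51.0 CPM after siRNA. It rose by 6.18 ± 0.144 on the log2 scale with siRNA (adjusted p = 7.77e-19). With overexpression its log2 fold change was -0.65 ± 0.353 (adjusted p = 0.159), so the difference from the control did not pass the test.

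Next to *CXCL8* in the gene order of RefSeq's pig assembly Sscrofa11.1 lies *AMCF-II*, a porcine ELR chemokine related to human CXCL5 and CXCL6, which the symbol rule does not catch. It was at 12.9, 12.4 and 20.3 CPM in the control, 4.31, 3.9 and 3.59 CPM after overexpression and 1571, 1376 and 1473 CPM after siRNA. After siRNA its FPKM was 1288, 1105 and 1244, above the mean of 789 of *CXCL8*. The ligand sums and shares given above leave *AMCF-II* out. Its groups were ordered like those of *CXCL8*, without overlap, and it passed the test in both directions (log2 fold change 6.6 ± 0.154 with siRNA, adjusted p = 1.63e-12, and -1.95 ± 0.201 with overexpression, adjusted p = 1.04e-05). The following gene, *PPBP*, which encodes a platelet chemokine, had no count in the 6 control and overexpression libraries and 10 counts in each of the 3 siRNA libraries, at least 10.2-fold higher than control when the empty group is given 3 counts (6.77 to 10.3 with each library left out in turn). *CXCL2* lies beyond *PPBP* with 2 other protein-coding genes between them, so the 4 genes that rose here lie in 1 gene neighborhood.

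The CXCR3 ligands *CXCL9*, *CXCL10* and *CXCL11*, which interferons induce and which attract activated T cells, form another neighborhood but differed in level. *CXCL10* was at 0.516, 0.233 and 0.233 CPM in the control, 1.55, 1.66 and 1.28 CPM after overexpression and 187, 173 and 187 CPM after siRNA. Both manipulated groups lay above every control library. It rose by 2.16 ± 0.303 on the log2 scale with overexpression (adjusted p = 8.19e-06) and by 9.09 ± 0.132 with siRNA (adjusted p = 5.02e-22), and overexpression was below siRNA (log2 fold change -6.92 ± 0.105, adjusted p = 9.36e-22). *CXCL11* was below the filter, with no count in the control, 5, 5 and 3 counts after overexpression and 8, 10 and 13 counts after siRNA. That is at least 4.3-fold above the control with overexpression and at least 10.6-fold with siRNA, with 3 counts set for the empty group, and leaving out each library in turn gave bounds of 2.85 to 4.95 and 7.0 to 11.7. *CXCL9* had 1 count in all 9 libraries together.

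*CXCL12*, *CXCL14* and *CX3CL1* fell with overexpression and rose with siRNA. *CXCL14*, a chemokine that many tissues make without inflammation, was at 280, 316 and 601 CPM in the control, 85.7, 81.8 and 82.2 CPM after overexpression and 8907, 10130 and 7435 CPM after siRNA. The groups did not overlap, but control replicate 3 was well above the other controls. The log2 fold change was 4.47 ± 0.343 with siRNA (adjusted p = 3.59e-05) and -2.26 ± 0.322 with overexpression (adjusted p = 0.0015), and without control replicate 3 these were 4.89 and -1.84. The deposited FPKM gave the same order of groups, at 197, 219 and 408 FPKM in the control, 60.0, 57.4 and 57.7 FPKM after overexpression and 6144, 6836 and 5278 FPKM after siRNA.

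*CXCL12*, which retains blood-forming cells and lymphocytes through CXCR4 and is also bound by ACKR3, was at 1.95, 2.22 and 3.56 CPM in the control, 0.69, 0.975 and 0.464 CPM after overexpression and 5.07, 6.11 and 4.66 CPM after siRNA. It fell with overexpression in all 3 libraries (log2 fold change -1.85 ± 0.294, adjusted p = 3.54e-05). The rise with siRNA was close to the 2-fold limit (1.03 ± 0.203, adjusted p = 0.000171) and was 0.86, 0.94 and 0.92 without control replicate 1, control replicate 2 and siRNA replicate 2. The deposited FPKM of *CXCL12* did not scale with its counts across libraries, so its level is given in CPM only. On FPKM the rise with siRNA did not pass the test. It was 0.86 with limma on log2(FPKM + 0.1) (adjusted p = 0.179) and 0.72 with limma on log2(FPKM + 1) (adjusted p = 0.0572).

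*CX3CL1* (fractalkine), a membrane-bound ligand of CX3CR1 whose counts are uncertain, was at 3.96, 3.27 and 5.07 CPM in the control, 1.73, 2.18 and 1.51 CPM after overexpression and 18.0, 18.7 and 13.8 CPM after siRNA. All 3 groups were separate. The log2 fold change was 2.04 ± 0.149 with siRNA (adjusted p = 1.55e-10) and -1.18 ± 0.214 with overexpression (adjusted p = 0.000142), and the latter was -1.0, just under the 2-fold limit, without control replicate 3. *CXCL16*, also anchored in the membrane and a ligand of CXCR6, was at 37.2, 38.4 and 55.2 CPM in the control, 39.8, 43.8 and 40.7 CPM after overexpression and 198, 204 and 178 CPM after siRNA. Control and overexpression overlapped, and siRNA lay above both. It rose by 2.15 ± 0.127 on the log2 scale with siRNA (adjusted p = 4.93e-08), and its difference between overexpression and control was -0.07 ± 0.133 (adjusted p = 0.675).

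**Figure D3:**
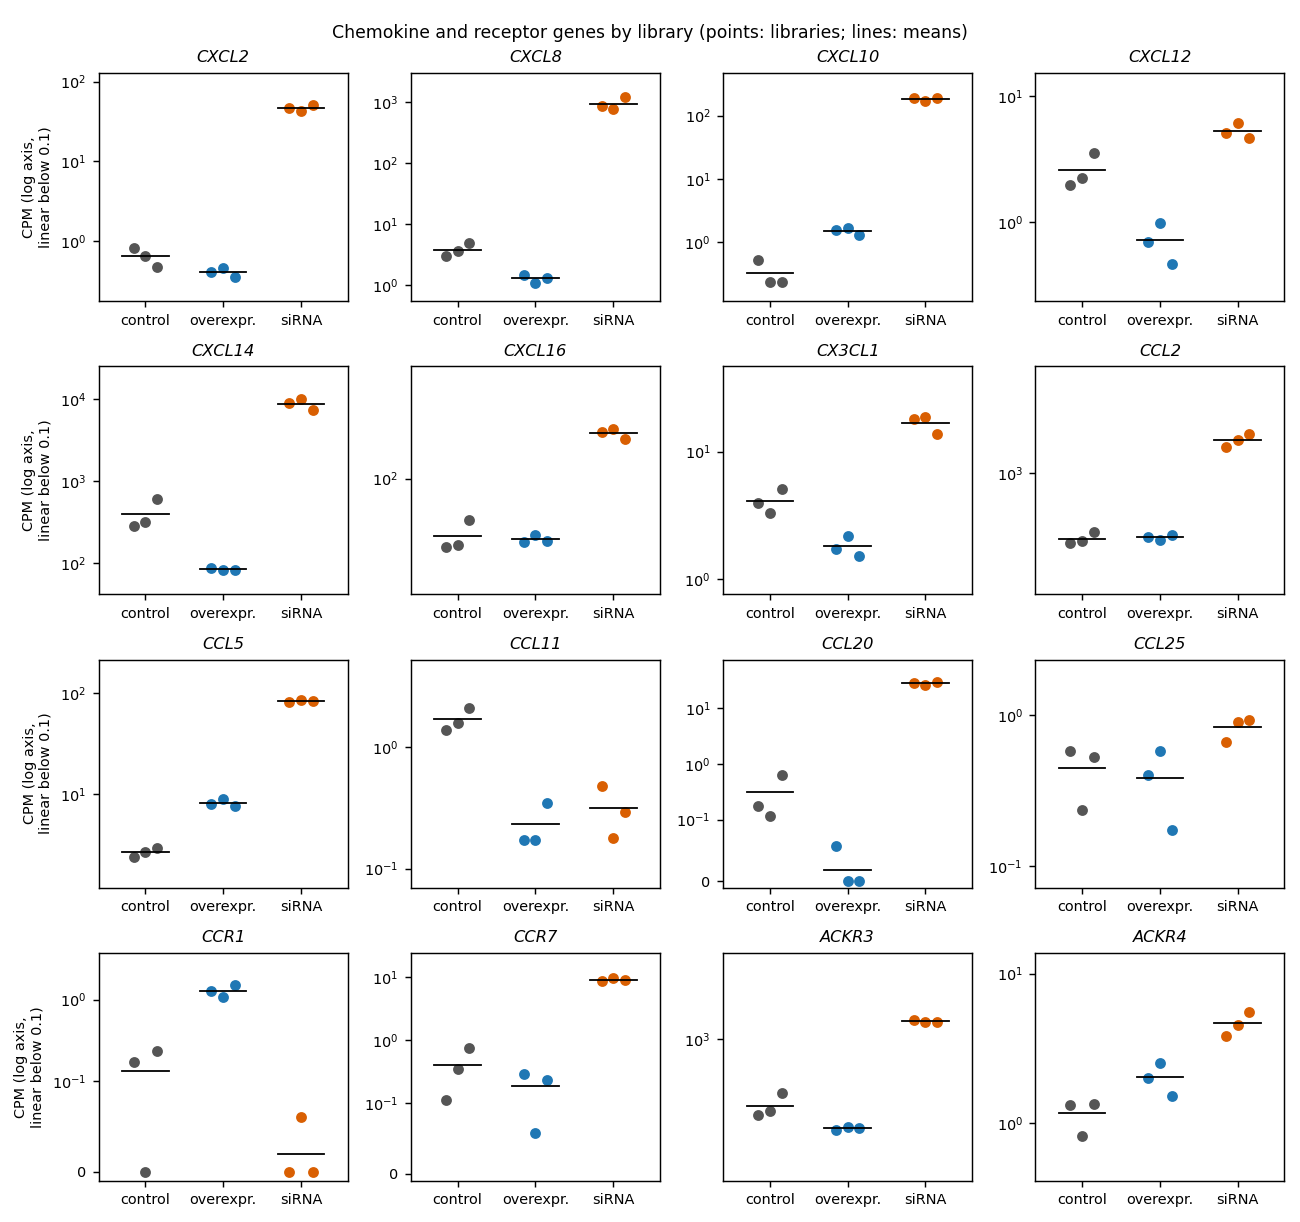
Level in each of the 9 libraries of the 16 chemokine and receptor genes described here by library, in CPM on a log axis that is linear below 0.1 (points, libraries; lines, group means; overexpr., overexpression). The siRNA points of *CXCL8*, *CXCL10*, *CCL20*, *CXCL2* and *CCR7* lie far above the other 6 points of the same gene, whereas the points of *CCL11* are highest in the control.

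Of the 13 CC ligands, 5 were tested. *CCL2*, the monocyte chemoattractant with the highest FPKM of all ligands in the control, was at 388, 398 and 451 CPM in the control, 421, 407 and 433 CPM after overexpression and 1432, 1565 and 1702 CPM after siRNA. The overexpression libraries lay inside the control range and the siRNA libraries above it. It rose by 1.93 ± 0.0722 with siRNA (adjusted p = 1.79e-15), and its log2 fold change with overexpression was 0.03 ± 0.0704 (adjusted p = 0.765). *CCL5*, which attracts T cells and monocytes, was at 2.35, 2.63 and 2.92 CPM in the control, 7.94, 8.95 and 7.59 CPM after overexpression and 82.4, 86.8 and 83.7 CPM after siRNA. Like *CXCL10* it rose in both manipulated groups (1.63 ± 0.125, adjusted p = 2.3e-09, with overexpression and 5.0 ± 0.0963, adjusted p = 4.5e-20, with siRNA), and the levels after overexpression and siRNA did not overlap (overexpression against siRNA -3.37 ± 0.0802, adjusted p = 7.8e-19).

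*CCL20*, the ligand of CCR6, was at 0.172, 0.117 and 0.642 CPM in the control and 28.1, 26.2 and 30.0 CPM after siRNA. After overexpression it was at 0.0575, 0 and 0 CPM, which is 1 count in the 3 libraries. It rose by 6.47 ± 0.216 with siRNA (adjusted p = 2.5e-16), and by 7.53 without control replicate 3. The ratio of overexpression to control was 0.0621 (95% counting interval 0.00148 to 0.399). The lower level passed the test with all libraries (fitted log2 fold change -3.58, adjusted p = 0.00498) but not without control replicate 3 (-2.52, adjusted p = 0.0644). Without overexpression replicate 1, which holds the count, it was at least 3.58-fold lower than control (adjusted p = 0.00663).

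*CCL11* (eotaxin), which attracts eosinophils through CCR3, was the gene that fell after both manipulations. It was at 1.38, 1.58 and 2.1 CPM in the control, 0.173, 0.172 and 0.348 CPM after overexpression and 0.478, 0.18 and 0.291 CPM after siRNA. Every manipulated library lay below every control library. The log2 fold change was -2.83 ± 0.373 with overexpression (adjusted p = 3.88e-06) and -2.39 ± 0.351 with siRNA (adjusted p = 5.79e-06). Overexpression and siRNA overlapped (log2 fold change -0.44 ± 0.536, adjusted p = 0.477). In the RefSeq gene order *CCL11* lies between *CCL8* and *CCL2*, and the 3 neighbors had 3 different patterns: *CCL2* rose with siRNA, *CCL11* fell in both groups, and *CCL8* was counted after overexpression only.

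*CCL25*, known from thymus and gut, was at 0.574, 0.233 and 0.525 CPM in the control, 0.403, 0.574 and 0.174 CPM after overexpression and 0.657, 0.899 and 0.932 CPM after siRNA. Its siRNA libraries lay above all others. Overexpression was below siRNA (log2 fold change -1.10 ± 0.405, adjusted p = 0.0217), but the adjusted p ranged from 0.0129 to 0.127 over the alternatives on counts. The log2 fold change was -1.13 without overexpression replicate 1 (adjusted p = 0.0507), -0.76 without overexpression replicate 3 (0.127), -1.04 without siRNA replicate 2 (0.063), -1.0 without siRNA replicate 3 (0.0661) and -1.11 with DESeq2 (0.102). Against control, siRNA gave 0.89 ± 0.392 (adjusted p = 0.0571), and without control replicate 1 it gave 1.10 (adjusted p = 0.0467).

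Among the 12 classical receptors, *CCR1* and *CCR7* were tested. *CCR1*, carried by monocytes and neutrophils, was at 0.172, 0 and 0.233 CPM in the control, 1.27, 1.09 and 1.51 CPM after overexpression and 0, 0.0599 and 0 CPM after siRNA. Only the overexpression libraries were above 1 CPM. It rose by 3.18 ± 0.481 with overexpression (adjusted p = 1.98e-05), and by 3.78 without control replicate 3. The siRNA group held 1 count in all, a ratio to control of 0.146 (95% counting interval 0.00324 to 1.14). That difference did not pass the test (adjusted p = 0.0791), though it did without control replicate 2 (adjusted p = 0.02) and without siRNA replicate 2 (adjusted p = 0.0461), which holds the count. Overexpression was higher than siRNA (fitted log2 fold change 5.58 ± 0.688, adjusted p = 3.93e-07), with a ratio of the counts of 65.1 (95% counting interval 11.3 to 2610). Without siRNA replicate 2 it was at least 14.5-fold higher.

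*CCR7*, the receptor for CCL19 and CCL21 that guides dendritic cells and T cells to lymph nodes, was at 0.115, 0.35 and 0.758 CPM in the control, 0.288, 0.0574 and 0.232 CPM after overexpression and 8.6, 9.71 and 8.97 CPM after siRNA. The siRNA libraries were far above the rest, and control and overexpression overlapped. It rose by 4.46 ± 0.27 with siRNA (adjusted p = 6.46e-12), and by 5.25 without control replicate 3. With overexpression the log2 fold change was -1.05 ± 0.593 (adjusted p = 0.152), and without control replicate 1 it was -1.50 (adjusted p = 0.0219). Its ligand *CCL19* had 6, 1 and 6 counts in the control, 4, 3 and 5 after overexpression and none after siRNA, at least 4.24-fold lower than control (2.8 to 5.86 with each library left out in turn). Its other ligand *CCL21* had 1 count in all.

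The atypical receptor *ACKR3*, which binds and removes CXCL12, made up 99.0%, 97.9% and 98.6% of the summed receptor FPKM in control, overexpression and siRNA. It was at 355, 375 and 480 CPM in the control, 290, 302 and 298 CPM after overexpression and 1289, 1251 and 1263 CPM after siRNA. All 3 groups were separate. It rose by 1.65 ± 0.0836 with siRNA (adjusted p = 9.39e-13), while with overexpression the log2 fold change of -0.44 ± 0.0825 (adjusted p = 0.000218) was under the 2-fold limit. *ACKR4*, which removes CCL19, CCL21 and CCL25, was at 1.32, 0.817 and 1.34 CPM in the control, 2.01, 2.52 and 1.51 CPM after overexpression and 3.82, 4.56 and 5.53 CPM after siRNA. Each manipulated library lay above each control library. It rose by 1.99 ± 0.229 with siRNA (adjusted p = 1.79e-07), and the log2 fold change with overexpression was 0.79 ± 0.263 (adjusted p = 0.0176), under the 2-fold limit. *ACKR2*, a scavenger of inflammatory CC chemokines, and *CCRL2*, which binds chemerin, passed the test in none of the comparisons and lay between 0.175 and 0.978 CPM in all 9 libraries.

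The other 21 genes did not pass the filter. *CCR4* and *CCR8* had no count in any library, and 15 of the 21 had at most 3 counts in every library. The highest count among them was 18, for *CCL8*, a ligand of several CC receptors that attracts monocytes. *CCL8* had 7, 10 and 18 counts after overexpression and none in the 6 other libraries, at least 11.6-fold above control (7.68 to 13.9 with each library left out in turn) and at least 11.3-fold above siRNA (7.49 to 13.6). *CCL14*, which binds CCR1, had 3, 4 and 4 counts after overexpression and none elsewhere, at least 3.64-fold above control (2.41 to 3.98) and at least 3.56-fold above siRNA (2.35 to 3.89). When every gene with a count was tested, *CCL8* (adjusted p = 9.41e-06), *CCL14* (0.00632) and *CXCL11* (0.00132) were among those higher with overexpression than in the control, and *CCL19* was lower with siRNA than in the control (0.00193).

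The genes that follow were counted too rarely to compare the groups. *CCR10*, the receptor for CCL27, had 3, 5 and 0 counts in control cells, 7, 4 and 2 with overexpression and 2, 3 and 4 with siRNA. *CXCR4*, the receptor for CXCL12, had between 0 and 3 counts per library, and *CCL4*, an inflammatory CC chemokine, had 4 counts in the siRNA group, 2 after overexpression and none in the control. *CXCL9*, *CCL3L1*, *CCL21*, *CCL22*, *CCL27*, *CCR3*, *CXCR2*, *CXCR5*, *CX3CR1*, *XCR1* and *ACKR1* had at most 3 counts in every library. At this depth a difference in these genes was not detectable, and a group without a count allows up to 3 counts.

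**Figure D4:**
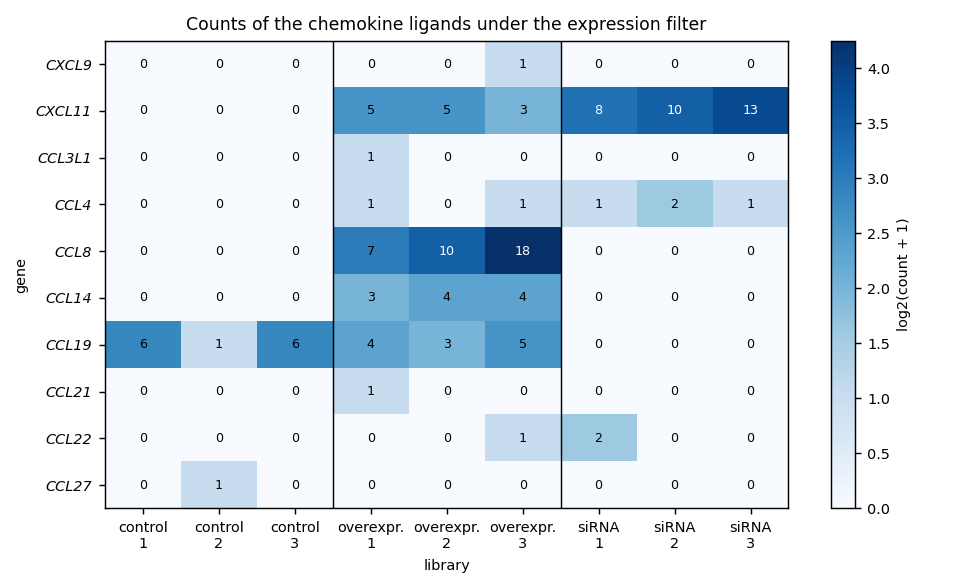
Estimated counts per library of the chemokine ligands under the filter (overexpr., overexpression), with the number in each cell and its color on the scale log2(count + 1). *CCL8* and *CCL14* have counts in the 3 overexpression libraries only, *CXCL11* in both manipulated groups, and *CCL19* in the control and overexpression libraries.

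Markers of blood cells moved with part of these results. Of 14 macrophage markers 11 were tested, and 8 rose with overexpression (2.61% of all tested genes did). A marker absent from the other groups could pass the filter on low counts only through overexpression, so this share also describes that selection. The summed level of the 14 markers was 12.4 to 15.7 CPM in the control, 46.1 to 47.0 CPM after overexpression and 16 to 19.5 CPM after siRNA. *CD163*, *C1QA*, *C1QB*, *ADGRE1* and *SIGLEC1* had no count in the control and each had counts after overexpression, and *CD163*, *C1QB*, *C1QC*, *ADGRE1* and *MARCO* had none after siRNA. This marker level was highest in the group in which *CCR1*, *CCL8* and *CCL14* were highest, and its part in those results was not tested. In the siRNA libraries, where *CXCL8*, *CXCL10*, *CCL20* and *CCR7* were highest, 1 of the 11 tested macrophage markers rose and 1 fell (7.67% and 7.52% of all tested genes did). Summed levels of the 5 T and NK cell markers in the table were 2.24 to 2.97 CPM in the control, 3.39 to 4.36 CPM after overexpression and 2.45 to 2.94 CPM after siRNA, with *CD8A* and *CD4* at 0 in the control and *CD8A*, *NKG7* and *IL7R* at 0 after siRNA. B cell markers stayed under 0.54 CPM and mast cell markers under 1.5 CPM in all libraries. Neutrophil markers summed to 0.875 to 2.47 CPM in the control, 0.518 to 0.812 CPM after overexpression and 1.32 to 7.57 CPM after siRNA. Nearly all of these counts were of *S100A8* and *S100A9* (33 and 61 counts in the control, 10 and 22 after overexpression, 83 and 95 after siRNA), while *CSF3R* and *MPO* had at most 3 counts in any group. Endothelial markers summed to 34.1 to 35.5, 28.8 to 31.6 and 21.5 to 22.6 CPM in the same order.

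Genes around the chemokines were read from fixed lists. Of 20 transcription factors and regulators known to act on chemokine genes, all tested, 10 rose with siRNA (7.67% of all tested genes did), and the median log2 fold change of the list was 0.97 with siRNA and -0.08 with overexpression. *IRF7*, an interferon regulatory factor, went from 25.3 ± 3.7 CPM (SD, n = 3) in the control to 154 ± 16.3 CPM after siRNA (log2 fold change 2.61, adjusted p = 1.52e-15). *NFKBIA*, the inhibitor of NF-κB that NF-κB itself induces, rose by 2.24 (adjusted p = 3.12e-15), and *FOSL1*, a subunit of AP-1, rose by 1.86 (adjusted p = 5.23e-16).

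Of 17 genes whose products cleave or display chemokines, all tested, 5 rose and 3 fell with siRNA (7.67% and 7.52% of all tested genes did), and 2 rose with overexpression (2.61% did). The metalloproteinase genes *MMP3* and *MMP1* rose with siRNA by 6.75 (adjusted p = 0.000301) and 3.34 (adjusted p = 7.09e-07), and the former value was 7.42 without control replicate 2 and 6.15 without siRNA replicate 3. *MMP1* (1.23, adjusted p = 0.000555) and *MMP9* (2.18, adjusted p = 0.00711) rose with overexpression. *SDC2*, a heparan sulfate proteoglycan of the kind that holds chemokines at the cell surface, fell by 2.61 with siRNA (adjusted p = 4.93e-18).

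Of 48 listed genes of the receptors' signaling chain 41 were tested, and 3 rose with overexpression (2.61% of all tested genes did) while 2 rose and 1 fell with siRNA (7.67% and 7.52% did). *GRK5*, a receptor kinase, rose with siRNA by 1.24 (adjusted p = 2.73e-13), as did *ARRB1* (β-arrestin 1, uncertain counts) by 1.68 (adjusted p = 2.05e-13). *VAV1* and *FGR*, signaling genes of blood cells, rose with overexpression. *VAV1* had 1 count in the control, 41 after overexpression and none after siRNA (overexpression to control 40.7, 95% counting interval 6.91 to 1647), and without control replicate 1 the bound was at least 9.0-fold. It could pass the filter on low counts only through overexpression, so the share of this list that rose also describes that selection. *FGR* rose by 1.56 (adjusted p = 0.0204, 0.000311 to 0.111 over the alternatives on counts), and by 2.86 without control replicate 3.

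Of 15 chemoattractant genes with other symbols, 12 were in the table and 11 were tested. With siRNA 2 rose (*AMCF-II* and *PPBP*) and 4 fell (7.67% and 7.52% of all tested genes did), and with overexpression 1 rose and 1 fell (2.61% and 1.89% did). *PPBP* passed the filter on low counts only through siRNA. *CMKLR1* reached the level of that filter in all libraries of the overexpression group only, so these shares also describe that selection. *CMKLR1*, the receptor for the adipose chemoattractant chemerin, had 6, 9 and 13 counts in the control, 18, 18 and 25 after overexpression and none after siRNA. It was at least 9.14-fold lower with siRNA than in the control (6.04 to 10.8 with each library left out in turn). Its rise with overexpression (log2 fold change 1.10, adjusted p = 0.0116) did not pass without control replicate 1 (0.86, adjusted p = 0.0576), without overexpression replicate 3 (0.92, adjusted p = 0.0729) or with DESeq2 (1.12, adjusted p = 0.0962). *PITPNM3*, reported as a receptor for CCL18, fell by 2.26 with siRNA (adjusted p = 9.79e-05), and by 2.92 without siRNA replicate 2.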

How the data were processed

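RNA was sequenced in 9 libraries, 3 per group. The labels name removal of ribosomal RNA, whereas the paper describes cDNA primed with oligo(dT), so which transcripts were captured is not certain. Per the labels, the authors checked reads with FastQC and aligned them with HISAT. The authors deposited estimated counts and FPKM for 16562 genes. Not given in the sources used here are the counting tool, strand setting, annotation and genome build, so no coordinates are printed, and reads of overlapping or near-identical genes may be shared. Of the estimated counts, 5.38% were not whole (tolerance 1e-09).

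The deposited counts were rounded to whole numbers. CPM used TMM factors and are listed in replicate order. Tests used R 4.3.3 and edgeR 4.0.16 (filterByExpr, robust quasi-likelihood F test, 1 fit of 9 libraries, Benjamini-Hochberg over 12721 tested genes), and the biological coefficient of variation was 0.0607. Each standard error was the size of the log2 fold change over the root of its F value. A change needs an adjusted p under 0.05 and at least 2-fold. The code was tested on simulated data. Counting intervals (95%) and floors (3 counts over a group) cover counting error only, and p-values measure the spread between these replicates, which may be technical.

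Members and lists were chosen with earlier results of these data known. In depth are given all members that changed and those with the highest 5 mean FPKM, and from each fixed list at most the 4 changed genes with the largest changes. Alternatives were DESeq2 1.42.0, no TMM factors, no or a stricter filter, only the compared groups, a replicate block, limma 3.58.1 on FPKM, other fold limits and each library left out. All 39 symbols matched RefSeq, which was used for gene order only. Some genes are not reported here.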

Additional observations from a re-analysis of the deposited data

How the results depend on the processing

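Over the alternatives, 702 of 738 log2 fold changes of the tested genes kept their direction and side of the threshold, 22 lost the call, 5 gained it and 9 changed sign, and of 275 values of the named genes outside the families 261 kept both and 14 lost the call. With overexpression against control, the higher count was 3, and it was 6 with DESeq2, 7 with limma on log2(FPKM + 0.1) and 7 without a filter, where low-count genes enter. The lower count was 6, and it was 3 with a 4-fold limit, 3 with limma on log2(FPKM + 1) and 3 to 6 with each library left out, the lowest without control replicate 3. With siRNA against control, the lower count was 1, and it was 2 with DESeq2, with both limma settings and without a filter, and 1 to 2 with each library left out (2 without control replicate 2 or siRNA replicate 2). With overexpression against siRNA, the higher count was 1, and it was 4 with DESeq2, with limma on log2(FPKM + 0.1) and without a filter, and 2 with limma on log2(FPKM + 1).

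The sign changes were all in differences that did not pass the test, and their cause was not tested. With overexpression against control, *CCL2* was -0.02 without control replicate 1 (range over all alternatives on counts -0.02 to 0.1), *CXCL16* 0.13 without control replicate 3 (-0.18 to 0.13), and *CCL25* 0.01 without control replicate 1 and 0.13 without overexpression replicate 3 (-0.61 to 0.13). With siRNA against control, *ACKR2* was 0.19 without control replicate 1 and 0.05 without siRNA replicate 2 (-0.27 to 0.19), and *CCRL2* 0.02 without siRNA replicate 3 (-0.7 to 0.02). With overexpression against siRNA, *CCRL2* was -0.07 without overexpression replicate 2 and -0.40 without siRNA replicate 3 (-0.40 to 0.32).

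Same-numbered libraries showed no clear shared deviation (correlations -0.0981 to 0.123). This does not settle whether same-numbered samples were handled together. With the replicate number as a block the counts of higher and lower genes were 3 and 6 with overexpression, 13 and 1 with siRNA and 1 and 14 between them, and 0 of 54 calls changed.

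Over all genes, 332 were higher and 241 lower with overexpression, 976 and 956 with siRNA, and 1213 and 1167 between them. Without a fold limit these were 3042 and 2978, 3751 and 3801, and 4173 and 4309. With a 4-fold limit they were 115 and 39, 394 and 340, and 492 and 418. With limma on log2(FPKM + 1) they were 130 and 83, 620 and 383, and 581 and 694. Depth limits the 21 untested genes, and a fit of only the compared groups gave no value for genes that its filter removed.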
